A study of Mus musculus with 12 samples.

Results

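The endoplasmic reticulum (ER) quality control genes described here are 34 genes of protein folding, disulfide formation, translocation and ER-associated degradation (ERAD), together with the ATF6, IRE1 and XBP1 regulators. They were chosen by name for what they are known to do, with earlier results of these data known. All 34 were found among the 46095 rows of the count table, with Selenos under its older symbol Vimp, and all 34 passed the filter on low counts that left 13743 genes to test. Acinar cells of the pancreas make and export digestive enzymes in very large amounts, and their ER is built for that load. Nascent proteins enter through the SEC61 channel and fold with the help of the HSP70 protein BiP, lectin chaperones and protein disulfide isomerases. Those that fail to fold are passed back through the HRD1 membrane complex to the cytosol for degradation. When unfolded proteins accumulate, the unfolded protein response raises this machinery through 3 sensors. ATF6 and IRE1 (encoded by Ern1, acting by splicing Xbp1 mRNA) act on many of the genes here, and PERK lowers translation and induces ATF4. No change of a member was assigned here to a single sensor.

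RNA was sequenced from pancreas tissue of mice at postnatal day 56, with 6 samples from the C57BL/6J wild type (WT 1 to 6) and 6 from the Axl-/-Mertk-/- genotype, which lacks both receptor tyrosine kinases (AMKO 1 to 6). Caerulein was injected into the peritoneum of all of them 10 times, at hourly intervals and 100 µg/kg, and tissue was taken 12 h after the first dose, a regimen of acinar overstimulation that leads to acute pancreatitis. No untreated pancreas was analysed here, so every difference below is between genotypes within pancreatitis. The sources used here name no strain background for AMKO, so a background difference and the loss of both receptors cannot be told apart.

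Library totals ran from 10668637 to 15184371 counts. The targeted gene Axl averaged 58.9 ± 12.3 CPM (counts scaled to a common library size) in the wild type and 9.09 ± 2.21 CPM in AMKO libraries (SD, n = 6 each), with no overlap between the groups. Of 25 acinar markers, 22 had counts and together took 27.6% to 38.9% of a library, while Prss2 and Try4 were listed at 0 in every library. The wild type group was not uniform, since liver transcripts summed to 5.80 to 13.8 CPM in WT 1 to 3 and to 28.7 to 62.1 CPM in the other 9 libraries. Neutrophil markers were lowest in WT 3, WT 6, AMKO 3 and AMKO 6 (250.6 to 322 CPM summed, against 427 to 1171 CPM in the other 8). The comparison is therefore also given with WT 4 to 6 alone, with WT 1 to 3 alone, and without those 4 libraries.

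The sequences that tie many of these genes to the unfolded protein response are the ER stress response elements of their promoters, shown here to set the members side by side at the sequence level. Of the 34 members, 29 had a RefSeq promoter (GRCm38.p6, 250 bases before to 50 bases after the start); Atf6, Hyou1, Manf, Sec61a1 and Derl1 had none. The windows were searched on both strands for the ERSE (CCAAT and CCACG with 9 bases between them), the ERSE-II (ATTGG and CCACG with 1 base between them) and the UPRE (TGACGTGG). The ERSE and the ERSE-II share CCACG, which the reverse complement of the UPRE also contains. An exact ERSE was found in 9 members and in 0.119% of all 32851 promoters, an ERSE-II in 2 members (Herpud1 and Dnajb11) and 0.0365% of promoters, and a UPRE in 1 member (Vcp) and 0.676% of promoters. Hsp90b1 had 2 ERSE matches. A match describes the letters and is not evidence of binding, and a window without a match says only that these letters are not in it.

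The ERSE matches are given with 6 flanking bases on each side, read 5′ to 3′ on the strand of the motif, with its fixed bases in capitals, so that the 9 genes can be compared.
Hspa5 (chr2:34772025-34772043): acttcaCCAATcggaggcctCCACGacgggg
Hsp90b1 (chr10:86705638-86705656): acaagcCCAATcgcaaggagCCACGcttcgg
Hsp90b1 (chr10:86705533-86705551): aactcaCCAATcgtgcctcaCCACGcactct
Dnajc3 (chr14:118937827-118937845): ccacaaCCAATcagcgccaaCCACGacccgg
Calr (chr8:84847075-84847093): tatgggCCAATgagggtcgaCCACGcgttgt
Canx (chr11:50325800-50325818): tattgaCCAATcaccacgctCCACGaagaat
Pdia6 (chr12:17266491-17266509): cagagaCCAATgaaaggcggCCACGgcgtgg
Creld2 (chr15:88819520-88819538): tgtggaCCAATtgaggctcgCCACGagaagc
Syvn1 (chr19:6046532-6046550): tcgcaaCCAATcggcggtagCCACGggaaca
Derl3 (chr10:75893242-75893260): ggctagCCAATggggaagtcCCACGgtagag

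The whole windows of BiP (Hspa5), as the best known ERSE promoter, and of Herpud1, Dnajb9 and Sel1l, the members that changed, follow 5′ to 3′ on the strand of the gene, with motif letters in capitals.
Hspa5 (chr2:34771840-34772139, plus strand): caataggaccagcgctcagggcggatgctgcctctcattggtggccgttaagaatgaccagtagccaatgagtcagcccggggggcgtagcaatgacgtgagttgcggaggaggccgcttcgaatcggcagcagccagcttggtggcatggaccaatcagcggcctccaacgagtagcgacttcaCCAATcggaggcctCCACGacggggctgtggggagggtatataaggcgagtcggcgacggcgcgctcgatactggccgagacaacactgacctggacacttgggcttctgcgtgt
Herpud1 (chr8:94386179-94386478, plus strand): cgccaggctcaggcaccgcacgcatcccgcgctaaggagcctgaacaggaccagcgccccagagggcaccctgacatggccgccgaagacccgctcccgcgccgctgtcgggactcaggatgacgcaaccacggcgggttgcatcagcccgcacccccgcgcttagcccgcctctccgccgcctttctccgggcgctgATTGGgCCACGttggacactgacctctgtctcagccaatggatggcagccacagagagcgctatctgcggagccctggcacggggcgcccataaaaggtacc
Dnajb9 (chr12:44210019-44210318, minus strand): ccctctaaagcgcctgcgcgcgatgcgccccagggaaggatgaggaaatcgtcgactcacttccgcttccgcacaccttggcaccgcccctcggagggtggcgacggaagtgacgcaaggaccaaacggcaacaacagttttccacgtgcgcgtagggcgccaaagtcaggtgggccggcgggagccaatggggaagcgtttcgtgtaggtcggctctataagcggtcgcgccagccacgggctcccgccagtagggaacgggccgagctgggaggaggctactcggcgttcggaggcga
Sel1l (chr12:91849108-91849407, minus strand): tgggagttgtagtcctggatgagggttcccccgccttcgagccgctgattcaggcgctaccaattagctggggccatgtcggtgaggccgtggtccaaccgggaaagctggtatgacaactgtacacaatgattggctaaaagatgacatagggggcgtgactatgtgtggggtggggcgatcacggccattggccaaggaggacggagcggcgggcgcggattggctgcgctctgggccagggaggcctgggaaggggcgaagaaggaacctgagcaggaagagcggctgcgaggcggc

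Most of the ER folding and degradation machinery did not differ detectably between the genotypes, while 3 members did. Herpud1 and Dnajb9 rose in AMKO, and Sel1l fell. In edgeR's quasi-likelihood test with Benjamini-Hochberg adjustment over all 13743 genes, 3 of 34 members (8.82%) were called at an adjusted p under 0.05, against 5.78% of all genes tested. By direction, 2 members were higher, against 2.41% of all genes, and 1 was lower, against 3.37%. There were 5 of 34 members (14.7%) with an unadjusted p under 0.05, against 21.9% of all genes, a count too small to read as a difference. The median log2 fold change (AMKO minus wild type) was 0.02 over the members and -0.002 over all genes tested, and 20 members had fitted values above 0 and 14 below. DESeq2 and limma voom called the same 3 members.

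**Figure D1:**
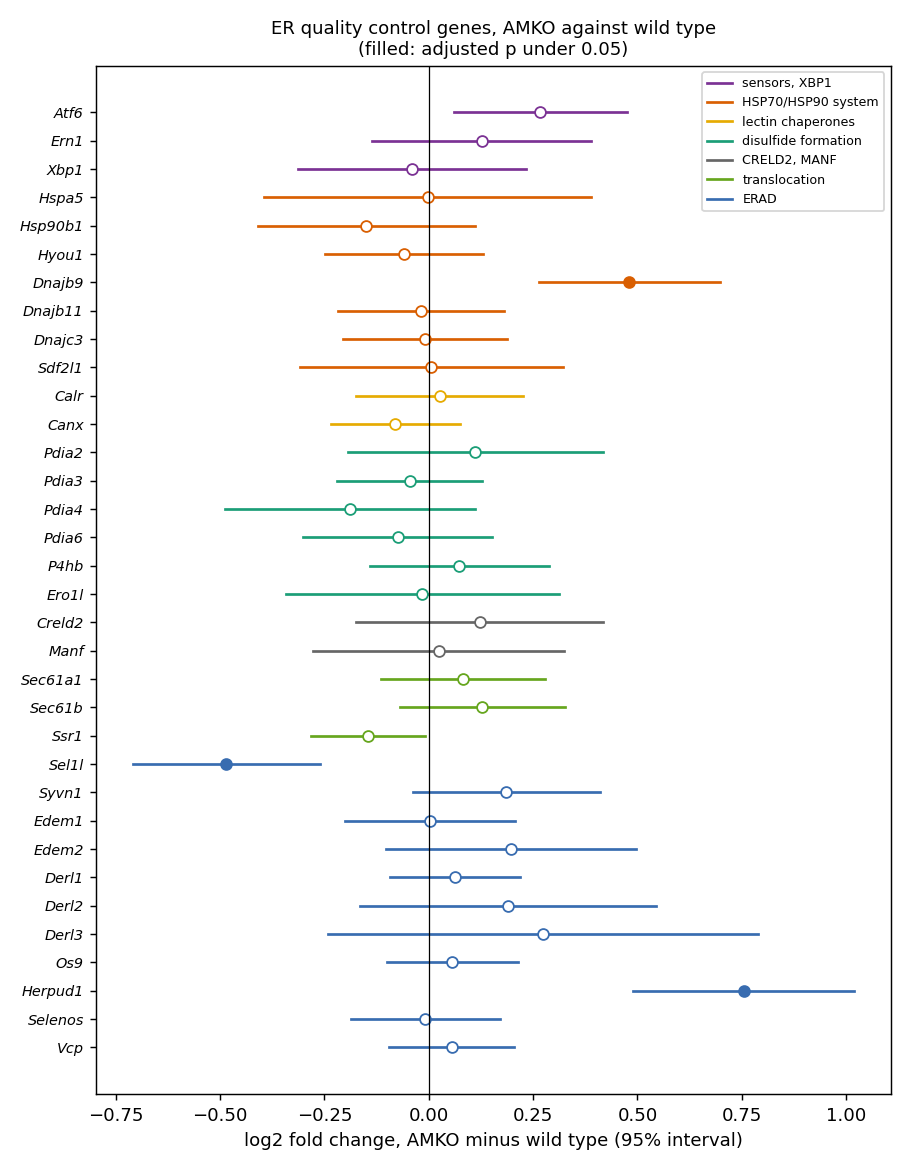
Log2 fold change of each of the 34 members, AMKO minus wild type (x axis), with its 95% interval, coloured by role and filled where the adjusted p was under 0.05. Herpud1 (0.75) and Dnajb9 (0.48) lie above 0 and Sel1l (-0.49) below it, and the other 31 members cluster around 0.

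Herpud1, whose product HERP is an ER membrane protein that helps assemble the HRD1 degradation complex, lies on chromosome 8 (94386438 to 94395377, GRCm38). Its level was 29.8 to 52.7 CPM in wild type (median 40.6) and 58.6 to 81.8 CPM in AMKO (median 68.2). Every AMKO library was above every wild type library. The log2 fold change was 0.75 (SE 0.12, 95% interval 0.49 to 1.02, adjusted p = 0.0038 in edgeR), a 1.69-fold higher level. Among members, Herpud1 had the largest change in the ERAD group, and its promoter is one of the pair with an ERSE-II.

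Dnajb9, which encodes ERdj4, a BiP cochaperone that binds misfolded proteins and holds IRE1 in check, lies on chromosome 12 (44205559 to 44210326). Wild type libraries held 42.9 to 64.0 CPM (median 50.3) and AMKO libraries 67.4 to 85.1 CPM (median 71.1). The groups did not overlap here either. Herpud1 and Dnajb9 were the 2 members (5.88%) without overlap, against 3.54% of all genes tested. The log2 fold change of Dnajb9 was 0.48 (SE 0.10, 95% interval 0.26 to 0.70, adjusted p = 0.0145 in edgeR), or 1.40-fold. A microRNA gene, Mir5627, overlaps it on the other strand.

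Sel1l encodes the adaptor that holds the ubiquitin ligase HRD1 and its lectins together, and lies on chromosome 12 (91806043 to 91849157). It stood at 117 to 189 CPM in wild type (median 150.1) and 92.6 to 120 CPM in AMKO (median 105). Of the AMKO libraries, 5 were below every wild type library, and AMKO 6, the highest of its group, was just above WT 1, the lowest of the wild type. The log2 fold change was -0.49 (SE 0.10, 95% interval -0.71 to -0.26, adjusted p = 0.0156 in edgeR), or 0.714-fold.

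All 3 calls held whichever of the 12 libraries was left out, with log2 fold changes of 0.68 to 0.84 for Herpud1, 0.43 to 0.54 for Dnajb9 and -0.53 to -0.40 for Sel1l. They did not all hold in the smaller comparisons. Against WT 4 to 6 alone (1.17% of genes called), none of the 34 members passed in edgeR and 5 had an unadjusted p under 0.05. There Herpud1 stood at 0.72 (adjusted p = 0.0635), Dnajb9 at 0.40 (0.170) and Sel1l at -0.55 (0.0568). With WT 1 to 3 alone (1.62% called), Herpud1 (0.81, adjusted p = 0.0102) and Dnajb9 (0.58, 0.0169) passed and Sel1l did not (-0.40, 0.0999). Without WT 3, WT 6, AMKO 3 and AMKO 6 (0.705% called), no member passed in edgeR, 3 had an unadjusted p under 0.05, and the values were 0.57, 0.35 and -0.52 (adjusted p = 0.0611, 0.191 and 0.111). Over all 26 alternatives each gene kept its sign, with adjusted p from 7.65e-07 to 0.0635 for Herpud1, 3.02e-04 to 0.191 for Dnajb9 and 0.00103 to 0.111 for Sel1l.

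**Figure D2:**
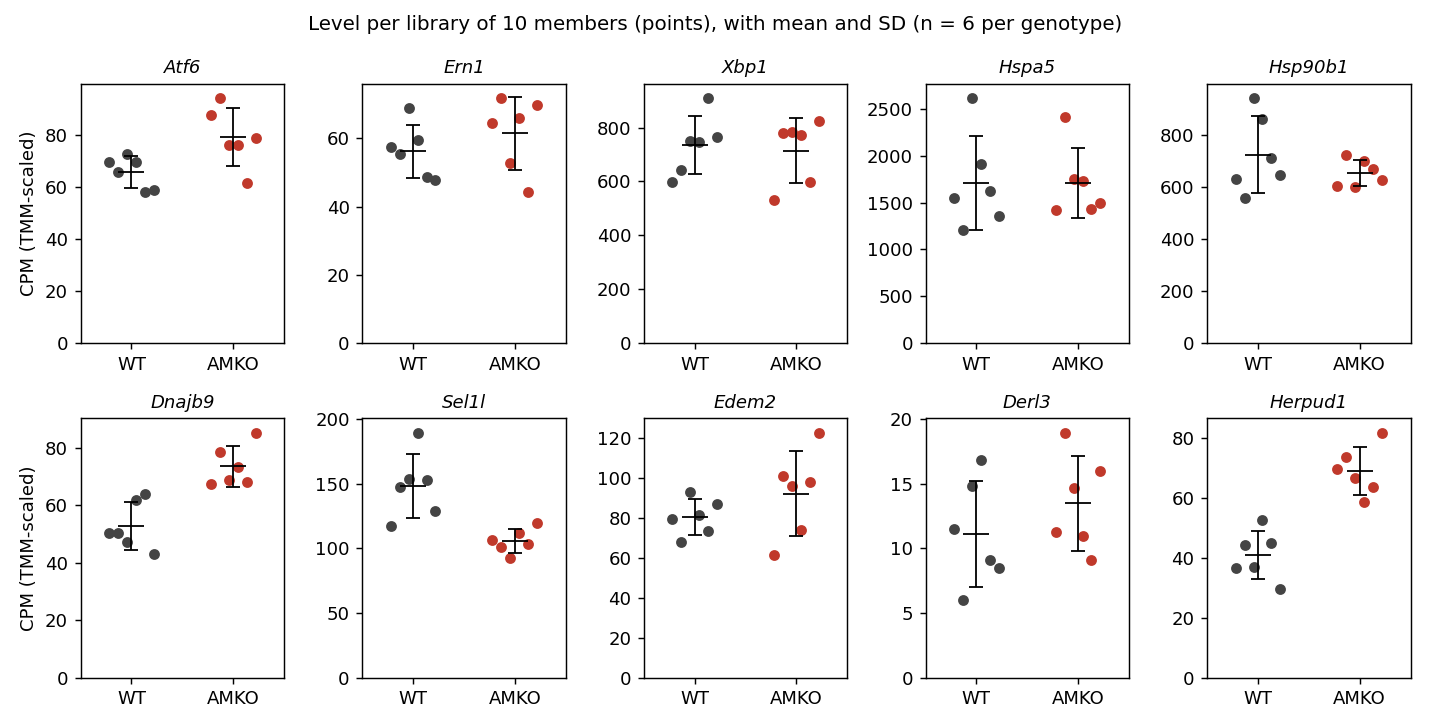
CPM (y axis, from 0) in each of the 12 libraries for 10 members, with points for libraries and bars for mean and SD of 6 per genotype. Herpud1 and Dnajb9 separate the genotypes. For Sel1l 5 AMKO libraries lie below every wild type library, and for Atf6 5 lie above. The genotypes also overlap for the other members shown.

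Among the sensors and their transcription factor, none of 3 genes passed in edgeR, and 1 (Atf6) had an unadjusted p under 0.05. Atf6 encodes the sensor that is cut in the Golgi to release a transcription factor. Its level was 57.9 to 72.6 CPM in wild type (median 67.7) and 61.7 to 94.1 CPM in AMKO (median 77.5). All AMKO libraries except AMKO 5 were above every wild type library. The log2 fold change was 0.27 (SE 0.10, 95% interval 0.06 to 0.47, adjusted p = 0.118 in edgeR). Without AMKO 5 it was 0.35 and passed the test (adjusted p = 0.0244, and 0.0244 to 0.477 over the 26 alternatives). AMKO 5 had the highest summed level of macrophage markers of the 12 libraries (1769 CPM, against 298 to 1664 CPM in the others). AMKO 1, with 1664 CPM of these markers, held 87.7 CPM of Atf6. The part of macrophage content in the Atf6 value of AMKO 5 was not tested.

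Ern1, the kinase and endonuclease IRE1, stood at 47.7 to 68.8 CPM in wild type (median 56.5) and 44.2 to 71.8 CPM in AMKO (median 65.2), with overlapping groups. Its log2 fold change was 0.13 (SE 0.12, adjusted p = 0.586 in edgeR). Xbp1, the mRNA that IRE1 splices, is among the abundant members, at 599 to 909 CPM in wild type (median 747) and 530.5 to 824 CPM in AMKO (median 776.5). The extremes of both groups crossed, and the log2 fold change was -0.04 (SE 0.13, 95% interval -0.31 to 0.23, adjusted p = 0.887 in edgeR). Counts over the whole gene do not separate spliced from unspliced Xbp1, so the activity of IRE1 cannot be read from them.

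In the HSP70 and HSP90 system only Dnajb9 was called. BiP, encoded by Hspa5, is the central HSP70 chaperone of the ER and the usual marker of the unfolded protein response. Hspa5 ranged from 1206 to 2613 CPM in wild type (median 1587) and from 1424 to 2409 CPM in AMKO (median 1614), so the spread within each genotype was far wider than any gap between them. Its log2 fold change was -0.0021 (SE 0.18, 95% interval -0.39 to 0.39, adjusted p = 0.997 in edgeR). Hsp90b1, the HSP90 protein GRP94, stood at 556.5 to 942 CPM in wild type (median 680) and 602 to 722 CPM in AMKO (median 648). WT 3 was the highest library for both genes and WT 2 the lowest, and the log2 fold change of Hsp90b1 was -0.15 (SE 0.12, adjusted p = 0.507). Exons of Hsp90b1 overlap other annotated genes on both strands, so its counts are uncertain.

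The other 4 genes of that system had log2 fold changes between -0.06 and 0.01. They are Hyou1, a large HSP70 relative that recharges BiP (152 ± 18.2 and 146 ± 12.7 CPM in wild type and AMKO), Dnajb11 (82.3 ± 9.99 and 81.3 ± 8.77 CPM) and Dnajc3 (167 ± 23.5 and 166 ± 11.1 CPM), both BiP cochaperones, and Sdf2l1 (27.1 ± 5.29 and 27.2 ± 5.61 CPM; SD, n = 6 each), which partners Dnajb11. None passed in edgeR, and adjusted p ran from 0.744 to 0.987. The lectin chaperones calreticulin (Calr, 0.03, SE 0.09) and calnexin (Canx, -0.08, SE 0.07), which hold glycoproteins during folding, also did not pass (adjusted p = 0.901 and 0.556). For Canx the 95% interval ran only from -0.23 to 0.07, so the data allow at most a small difference.

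Disulfide formation showed no call among 6 genes in edgeR, none with an unadjusted p under 0.05. Pdia2, the isomerase known for its expression in pancreas, averaged 1010 ± 175 CPM in the wild type and 1092 ± 204 CPM in the AMKO group, 0.11 higher on the fitted log2 scale (SE 0.14, adjusted p = 0.69), and did not pass. P4hb, the founding protein disulfide isomerase, was at 0.07 (SE 0.10) and Ero1l, the oxidase that recharges it, at -0.02 (SE 0.15). Pdia3, which acts with the lectin chaperones, and Pdia6 were at -0.05 and -0.07. Pdia4 had the lowest value of the 6 (-0.19, SE 0.14, adjusted p = 0.46), with AMKO 5 highest at 106 CPM and AMKO 2 lowest at 57.8 CPM, so both extremes of the 12 libraries lay in AMKO. Pdia3 lies 7.26 Mb from Mertk on chromosome 2, the nearest of the members to either targeted gene.

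Creld2 and Manf, ER stress proteins that respond to the same pathway, also did not pass, at 0.12 for Creld2 (SE 0.14, adjusted p = 0.65) and 0.02 for Manf (SE 0.14, adjusted p = 0.942). Of the translocation genes, Sec61a1 and Sec61b, subunits of the channel, were at 0.08 and 0.13, and Ssr1, a subunit of the translocon-associated complex, at -0.15 (SE 0.06, adjusted p = 0.194). Ssr1 varied least of all members within a genotype (pooled SD of 0.09 on the log2 CPM scale). Ssr1 averaged 120 ± 8.21 CPM in the wild type and 108 ± 5.82 CPM in the AMKO group, had an unadjusted p of 0.0372, and did not pass the adjusted test.

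The ERAD genes other than Herpud1 and Sel1l had fitted values from -0.01 to 0.27, and none of those 9 passed. HRD1 itself, encoded by Syvn1, averaged 61.7 ± 5.6 CPM in the wild type and 70.2 ± 11.5 CPM in the AMKO group, 0.19 higher on the fitted log2 scale (SE 0.10, adjusted p = 0.321). Os9, a lectin that delivers glycoproteins to SEL1L, was at 0.06 (SE 0.07). The derlins, membrane proteins of the retrotranslocation channel, were at 0.06 (Derl1), 0.19 (Derl2) and 0.27 (Derl3). Vcp, the ATPase that pulls substrates out of the membrane, and Selenos, a selenoprotein that recruits it, were at 0.06 and -0.01.

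Derl3 was the most variable member, at 6.03 to 16.8 CPM in wild type (median 10.3) and 9.09 to 18.9 CPM in AMKO (median 12.9). The groups overlapped over most of that range (log2 fold change 0.27, SE 0.24, 95% interval -0.24 to 0.79, adjusted p = 0.545 in edgeR). Edem2, a mannosidase-like protein that marks glycoproteins for degradation, stood at 67.8 to 92.9 CPM in wild type (median 80.5) and 61.7 to 123 CPM in AMKO (median 97.1). AMKO held both the highest and the lowest library (AMKO 6 and AMKO 1), and the log2 fold change was 0.20 (SE 0.14, adjusted p = 0.437). Its relative Edem1 was at 0.0041 (SE 0.10). Within the HRD1 complex, fitted values therefore ran from -0.49 for Sel1l to 0.75 for Herpud1, with Syvn1, Derl1 and Os9 between them and not called.

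The precision bounds what could have been missed. Of the 31 members that were not called, 29 had a 95% interval (not adjusted for the number of genes) that lay within 0.5 of 0 on the log2 scale. The exceptions were Derl2 and Derl3, whose upper bounds were 0.54 and 0.79 and which are among the members with the fewest counts. The window of 0.5 is close to the changes called for Dnajb9 (0.48) and Sel1l (-0.49). Some intervals nearly reach its edge, such as those of Pdia4 (-0.49 to 0.11) and Edem2 (-0.10 to 0.50), and do not exclude changes of that size. Counts of 12 members are less certain because their exons overlap another annotated gene or because they have a near-identical copy, such as Vcp and Vcp-rs (99.0% of 2421 aligned bases), and Herpud1 and Sel1l are not among them. None of the 9 members with an ERSE in the promoter window was called in edgeR, DESeq2 or voom, a count near the background of 5.78% of all genes; none had an unadjusted p under 0.05 in edgeR, and their log2 fold changes ran from -0.15 (Hsp90b1) to 0.27 (Derl3). The 20 members with a window but no ERSE ran from -0.49 to 0.75, and no test compared them with those that have one. These 20 include Herpud1, at 0.75, and Dnajb11, which have an ERSE-II, and Vcp, which has a UPRE.

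Levels of different genes were compared per length, as CPM per kilobase of annotated exon averaged over the 12 libraries. Pdia2 was highest at 611 CPM per kb, then Hspa5 (404), P4hb (300), Xbp1 (223), Hsp90b1 (171) and Calr (171), the last 2 of which did not differ beyond their spread. At the low end were Atf6 (7.84), Ern1 (7.20), Derl3 (6.17) and Derl2 (0.715). Exons of Derl2 overlap Mis12 on the other strand, so its level is uncertain. The disulfide genes were spread widely, with Pdia4 at 33.4 and Ero1l at 14.5 CPM per kb. The 34 members together took 0.914% ± 0.0615 of counts in wild type libraries and 0.896% ± 0.0773 in AMKO libraries (SD, n = 6 each).

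The members' level varied between libraries of the same genotype. Their mean score, the average over members of log2 CPM centred on the 12 libraries, was lowest in WT 2 (-0.21), WT 1 (-0.16) and AMKO 1 (-0.13) and highest in WT 4 (0.16), AMKO 2 (0.15) and WT 3 (0.11). WT 1, WT 2 and AMKO 1 were the lowest library for 24 of the 34 members in all (6, 11 and 7). These were also the 3 libraries with the lowest summed CPM of acinar markers (258482, 267947 and 238015, against 292468 to 453286 in the other 9), on the same scaling. As a share of raw counts the order of the members differed, since they took 0.853%, 0.853% and 0.916% in WT 1, WT 2 and AMKO 1, and the lowest share was 0.785% in AMKO 6, where acinar markers took their highest share. In bulk tissue, fewer acinar cells and less of each RNA per cell cannot be told apart. With the acinar score as a covariate the same 3 members were called, and log2 fold changes were 0.75 for Herpud1, 0.47 for Dnajb9 and -0.49 for Sel1l (adjusted p = 0.00324, 0.00856 and 0.00762 in edgeR). With the score of neutrophil and macrophage markers as the covariate the same 3 were called (adjusted p = 0.00147, 0.00848 and 0.00941). Some markers of other cell types were also called, where 3.37% of all genes were called lower and 2.41% higher. Of 10 duct markers 3 fell, and their mean score was 0.06 to 0.27 in wild type and -0.35 to 0.02 in AMKO without overlap, while their summed level overlapped (7755 to 9185 CPM and 6163 to 9393 CPM). Of 8 endothelial markers 2 fell, with summed levels of 157 to 235 CPM in wild type and 128 to 190 CPM in AMKO. Of the other lists, 2 of 22 acinar markers and 1 of 9 fibroblast markers fell and 1 of 12 macrophage markers rose. The neutrophil, B and plasma cell, islet and liver lists had no call, and no T cell marker was tested. Counts this small are not read as a result about a cell type. B and plasma cell markers summed to 4.89 to 56.6 CPM in wild type and 3.57 to 240.5 CPM in AMKO, highest in AMKO 1. Islet markers summed to 323.5 to 910 CPM in wild type and 152 to 2144 CPM in AMKO, highest in AMKO 6. The part of duct, endothelial, B and plasma, and islet cells in the 3 calls was not tested.

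**Figure D3:**
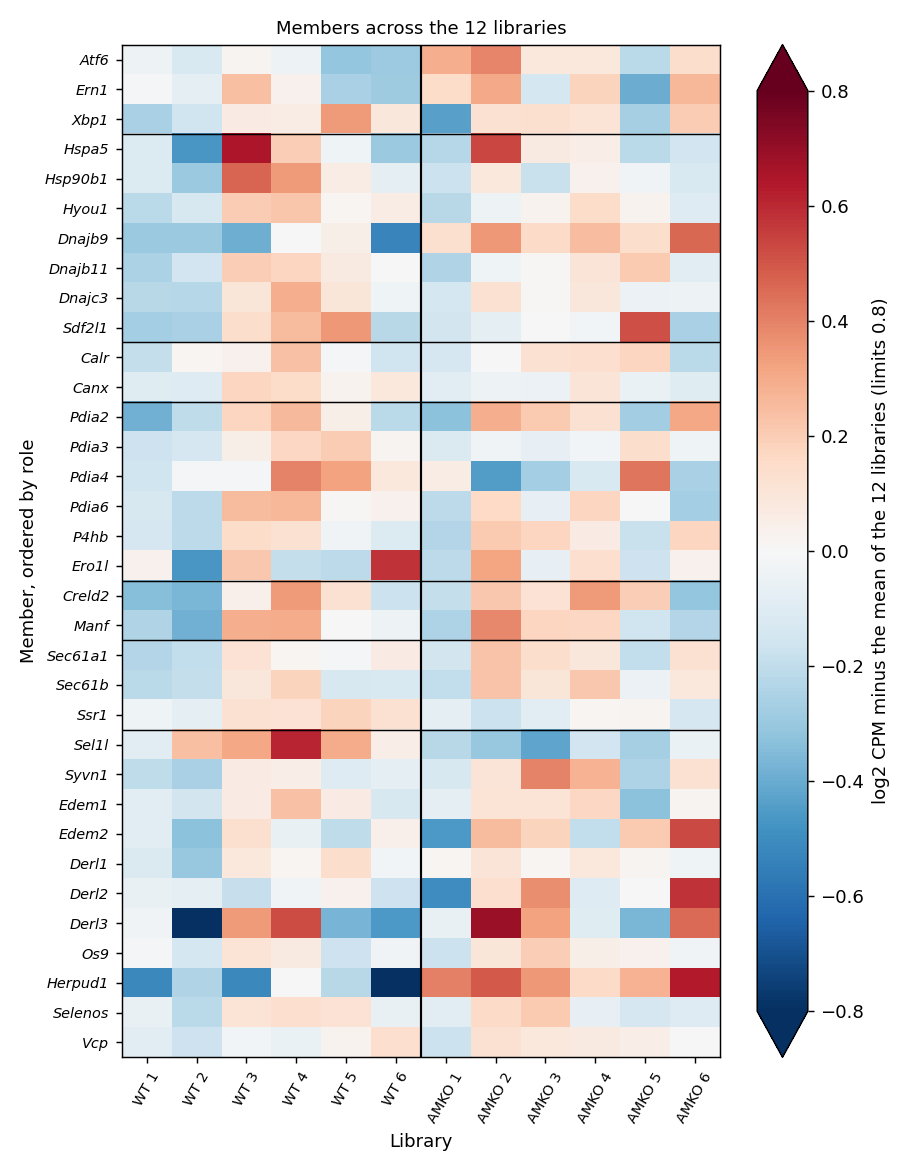
Log2 CPM of each member (rows, ordered by role, lines between roles) in each library (columns, wild type left and AMKO right), minus the mean of the 12 libraries, with colours limited at 0.8. WT 1, WT 2 and AMKO 1 are blue in most rows, and Herpud1 and Dnajb9 are red in every AMKO column and blue or near white in wild type.

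Chaperones were set against ERAD by giving each library the score of the 15 chaperone and disulfide genes minus that of the 11 ERAD genes. The difference was -0.06 to 0.11 in wild type (median 0.07) and -0.24 to 0.11 in AMKO (median -0.05). The groups overlapped, with AMKO 6 (-0.24), AMKO 3 (-0.16) and AMKO 2 (-0.08) below every wild type library and AMKO 1, AMKO 4 and AMKO 5 within its range. The means were 0.05 ± 0.06 and -0.05 ± 0.13 (SD, n = 6 each), a gap of -0.11 that is given as a description, since the groups of genes were chosen with results known. It was -0.08 with Dnajb9 and Herpud1 left out and -0.01 without WT 3, WT 6, AMKO 3 and AMKO 6. The value of -0.08 still includes Sel1l, a called ERAD gene that was lower in AMKO (log2 fold change -0.49) and so moves the gap towards 0. The gap without all called members is not given. The chaperone score alone was nearly equal (-0.0044 ± 0.17 in wild type and 0.0044 ± 0.09 in AMKO), and the ERAD score was -0.06 ± 0.13 and 0.06 ± 0.14.

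**Figure D4:**
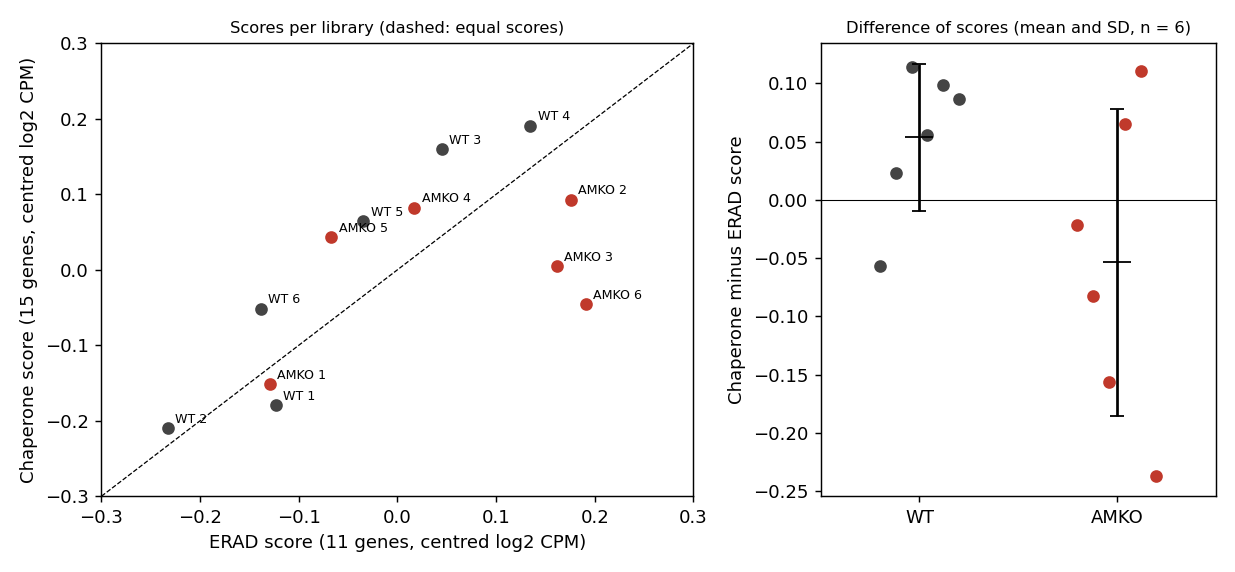
Left, chaperone score against ERAD score in each library, where points above the dashed line have the higher chaperone score; right, the difference of the scores by genotype, with mean and SD of 6 libraries. AMKO 2, 3 and 6 lie farthest to the right of the line, and AMKO 1, 4 and 5 lie within the range of the wild type libraries.

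The wider ER pathway was read from 6 further lists, whose counts stand against 5.78% of all genes called (2.41% higher and 3.37% lower) and 21.9% with an unadjusted p under 0.05. Translocation and signal sequence genes (0 of 31 called, 5 with an unadjusted p under 0.05) and ER to Golgi transport genes (0 of 26, 2 with an unadjusted p under 0.05) had no call in edgeR or DESeq2, and voom called 2 and 1. Of 24 other folding genes 1 fell, Dnajc10, an ER disulfide reductase (-0.28, SE 0.07, adjusted p = 0.0366), a call that, of the 12 fits without 1 library, held only without AMKO 5 or WT 1. Of 23 other ERAD genes, Aup1, which recruits a ubiquitin-conjugating enzyme to the ER membrane, rose (0.36, SE 0.09, adjusted p = 0.0281, but lost without AMKO 2, AMKO 3, AMKO 4, AMKO 6, WT 1, WT 2 or WT 4). Erlin2, an ER membrane protein that targets inositol trisphosphate receptors for degradation, fell (-0.33, SE 0.07, adjusted p = 0.0123), a call lost against WT 4 to 6 alone (0.0893), against WT 1 to 3 alone (0.122) and without the 4 libraries low in neutrophil markers (0.179). Their medians were -0.02, 0.01, -0.0035 and 0.03, close to the -0.002 of all genes.

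Regulators of the response had 2 calls among 20 tested genes, too few to set beside the 5.78% of all genes as a result about the list. Bhlha15, which encodes MIST1, a transcription factor of secretory cells and a known XBP1 target, rose from 14.6 to 26.0 CPM in wild type (median 19.6) to 28.3 to 47.1 CPM in AMKO (median 34.8). The groups did not overlap, and the log2 fold change was 0.86 (SE 0.14, adjusted p = 0.0032 in edgeR). Creb3l2, an ER-anchored transcription factor related to ATF6, fell from 40.5 to 62.2 CPM (median 48.5) to 24.9 to 32.2 CPM (median 29.3), again with no overlap (-0.79, SE 0.10, adjusted p = 0.001). Both passed against WT 4 to 6 alone (0.0185 and 0.019) and without the 4 libraries low in neutrophil markers (0.0335 and 0.0321), while against WT 1 to 3 alone Creb3l2 passed (0.0084) and Bhlha15 did not (0.0583).

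The third arm of the response is the PERK branch, and the last list was named for it. Changes in this list were not assigned to PERK itself, whose activity RNA counts do not measure. Of the 19 tested genes of the list 5 rose and 1 fell, against 2.41% and 3.37% of all genes. There were 12 with an unadjusted p under 0.05 in edgeR, against 21.9%, and the median log2 fold change was 0.30. The list was chosen with earlier results of these data known, so its counts are given as a description. Ppp1r15a, the phosphatase subunit GADD34 that restores translation, rose from 27.3 ± 5.21 to 53.2 ± 11.5 CPM (0.96, SE 0.16, adjusted p = 0.00442 in edgeR). Chac1, a glutathione-degrading enzyme induced by ATF4, rose from 33.6 ± 8.35 to 69.7 ± 16.9 CPM (1.05, SE 0.19, adjusted p = 0.00682), and neither gene overlapped between the groups. Atf4, the transcription factor of this arm, rose from 206 ± 26.2 to 306 ± 56.9 CPM (0.57, SE 0.12, adjusted p = 0.0159; SD, n = 6 each). Ddit4, an inhibitor of mTORC1, was the gene that fell (-0.63, SE 0.14, adjusted p = 0.0188, but lost without WT 1 or AMKO 3). Against WT 4 to 6 alone the list had 2 calls, Chac1 (adjusted p = 0.028) and Ppp1r15a (0.0297). Against WT 1 to 3 alone its 1 call was Ddit4, the gene that fell (adjusted p = 0.0463), and Ppp1r15a (0.0608), Chac1 (0.0657) and Atf4 (0.168) did not pass. Atf4 did not pass against WT 4 to 6 alone either (0.0702). The list had none in edgeR without the 4 libraries (11 with an unadjusted p under 0.05), where Ppp1r15a and Chac1 stood at adjusted p = 0.0547 and 0.0553 and Atf4 at 0.128. Whether the lists differ from each other was not tested.

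**Figure D5:**
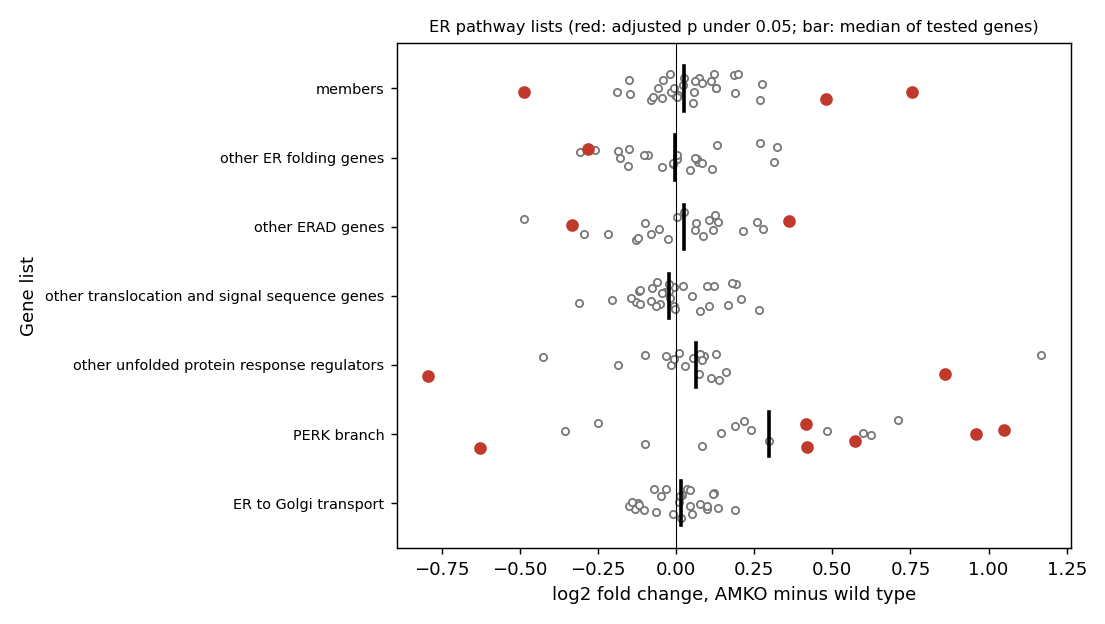
Log2 fold change, AMKO minus wild type (x axis), of every tested gene in the 34 members and in the 6 further lists (rows), red where the adjusted p was under 0.05, with a bar at each list's median. The PERK branch has 6 red points and a median of 0.30, and the medians of the other lists lie between -0.02 and 0.06.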

How the data were processed

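The deposited table holds raw, unscaled counts for 12 pancreas libraries, matched to samples by title. HISAT2 2.0.4 and mm10 are named in the submitters' processing notes, while no source used here names the counter, annotation or strand setting. Genotypes were compared by edgeR 4.0.16 in R 4.3.3, with filterByExpr, TMM factors, a quasi-likelihood F test and no covariate, a script tested on simulated data. CPM are on TMM-scaled library sizes, and log2 CPM use a prior count of 2. DESeq2 1.42.0, limma 3.58.1 (voom), other scalings, filters, covariates, the replicate block and subsets of libraries were alternatives. Positions, exon lengths and overlaps come from GENCODE M21, copies from BLAST 2.17.0 (95% identity over 300 bases). The members and lists were chosen with earlier results of these data known. Per-library values are plotted for Hspa5, Hsp90b1, Xbp1, Atf6, Ern1, Sel1l, called members and the 6 largest changes. Up to 4 called genes of each further list are named, with fold changes or group summaries. The labels do not say that samples came from separate mice, so p-values measure the spread between samples. No pair of libraries within a genotype agreed within sampling noise.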

Additional observations from a re-analysis of the deposited data

Results flagged for a closer look

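Each of the 34 members and the chaperone minus ERAD score was searched within each genotype for a library far from the other 5, as the gap to its nearest neighbour divided by the range of the group (critical value 0.625 for 6 libraries). Of 70 groups searched, 3 had such a library, and chance alone flags about 1 in 20. Sdf2l1, a BiP-associated cochaperone, was at 5.26 log2 CPM in AMKO 5, against 4.49 to 4.74 in the other AMKO libraries (ratio 0.669). Pdia3 was also highest in AMKO 5, at 8.85 log2 CPM against 8.60 to 8.68 (ratio 0.653). Canx was at 8.72 log2 CPM in AMKO 4, against 8.52 to 8.58 (ratio 0.718). AMKO 5 also had the highest summed level of macrophage markers (1769 CPM). AMKO 1, with 1664 CPM of these markers, held 24.1 CPM of Sdf2l1 and 387 CPM of Pdia3. The part of macrophage content in the AMKO 5 values was not tested.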

How the results depend on the processing

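The 3 calls among members held under every change of scaling, filter, tool or covariate tried and in every fit without 1 library; the members called numbered 3 to 4 there (2 to 3 higher, 1 lower). They numbered 0 with WT 4 to 6 alone (0 higher, 0 lower) and without WT 3, WT 6, AMKO 3 and AMKO 6 (0 and 0), and 2 with WT 1 to 3 alone (0 lower); these fits have fewer samples, and the cause was not tested otherwise. All genes called numbered 794, against 1302 with DESeq2, 1664 with voom, 1415 with the leukocyte score as covariate, 456 with total-count scaling, 167 with WT 4 to 6, 231 with WT 1 to 3, 98 without the 4 libraries, and 411 to 1140 without 1 library (411 without AMKO 3, 421 without AMKO 2, 505 without WT 4, 524 without WT 2). PERK branch calls numbered 6, against 10 with DESeq2 and with the leukocyte score, 9 with voom, 2, 1 and 0 in the 3 subsets, and 3 to 8 without 1 library (3 without AMKO 3 or WT 1). Other folding genes had 3 calls with the leukocyte score or voom, 0 in the 3 subsets, without a count filter or with total-count scaling, and 0 to 1 without 1 library. Other ERAD genes had 4 with the leukocyte score, 5 with voom, 0 in the 3 subsets, and 1 to 4 without 1 library (4 without AMKO 1). Other regulators had 1 with WT 1 to 3. Translocation genes had 1 with the leukocyte score, 2 with voom and 0 to 1 without 1 library (1 without AMKO 1), and ER to Golgi genes 1 with voom.

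Among members near 0, the sign turned for Hspa5 with DESeq2 (0.0073), RLE (0.0074), WT 4 to 6 (0.0794), the leukocyte score (0.0163), voom (0.10), no filter (0.0063), scaling without the 50 most counted genes (0.0024) and without the 4 libraries (0.15), with -0.13 to 0.16 without 1 library. It turned for Xbp1 with WT 1 to 3 (0.11) and voom (0.0289), with -0.0827 to 0.0454 without 1 library. The median of members ran from -0.0018 to 0.07 without 1 library, and the chaperone minus ERAD gap from -0.14 to -0.07. Samples share replicate numbers across genotypes. Deviations of same-numbered samples correlated over 0.1 in 4 of 6 pairs (-0.16 to 0.35), and 2 of 6 wild type libraries were closest to the AMKO library of their number. The labels name no batch, and 6 pairs are too few to show whether same-numbered samples share one. With the replicate block, 3 members and 910 genes were called, PERK branch calls numbered 9, and Hspa5 stood at 0.0152. Depth limits Derl2 most, with the fewest counts.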

Other observations

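Some members varied between libraries in ways that no comparison above uses. Ero1l, the oxidase that recharges protein disulfide isomerase, was highest in WT 6 (112 CPM) and lowest in WT 2 (54.5 CPM), so both extremes lay in wild type. Sdf2l1 and Pdia4 were highest in AMKO 5 (38.1 and 106 CPM), the library in which Ern1 was lowest (44.2 CPM). Within genotypes the pooled SD of log2 CPM had a median of 0.19 over the 34 members and of 0.24 over all genes tested, but of 0.16 over tested genes at a log2 CPM of 5 or more, the range of most members. For single members it ran from 0.09 for Ssr1 to 0.47 for Derl3.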
